A study of Mus musculus with 4 samples.

Results

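Ion channel genes were compared between cardiac endothelium, the cells that line the vessels of the heart, from mice given LPS by intraperitoneal injection and from mice given saline. LPS comes from the cell envelope of Gram-negative bacteria and acts through Toll-like receptor 4. The genes were all those whose platform symbol named a potassium channel gene (Kcn), a voltage-gated sodium channel gene (Scn followed by a digit), a voltage-gated calcium channel gene (Cacn), a pacemaker channel gene of the Hcn family or a ryanodine receptor gene (Ryr). There were 90 such genes among the 11138 measured, read by 200 spots of 100 oligonucleotides. One of them, Kcnmb4os1, is an antisense transcript and not a channel. Arrays were made 4 h and 24 h after injection, 2 per time, each carrying LPS RNA in one dye and saline RNA in the other. Array 1 of each time had LPS RNA in Cy5 and array 2, the dye reversal, had it in Cy3. The labels do not say whether the 2 arrays of a time came from separate animals or extracts, so a pair was 1 replicate and no test between LPS and saline was the main result. The sources used here do not give strain, age, sex, LPS dose, the number of animals or how the endothelium was isolated.

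Potassium channels set the resting potential and repolarise excitable cells, sodium channels carry the upstroke of the action potential, and voltage-gated calcium channels couple depolarisation to contraction, secretion or transmitter release. Endothelial cells are not electrically excitable. They are known for inwardly rectifying and calcium-activated potassium channels, which hyperpolarise the cell and through it the smooth muscle around the vessel. Cardiomyocytes and neurons carry most of the sodium and calcium channel families, so a cardiac isolate can hold channel RNA of several cell types. In such bulk RNA, fewer cells of a type and less RNA per cell cannot be told apart.

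Values are log2 ratios of LPS over saline, centred on the median of all genes of an array. Means over the arrays of one time carry the SD between them (n = 2 arrays), which measures differences between arrays and dyes and leaves out variation among animals. The direction was taken from the labelled dyes and is called likely, since the deposited table does not state it. The reversal between the 2 arrays of a time was checked on oligonucleotides whose duplicate spots lay within 0.5 log2 units and that were 2-fold on both arrays. Deposited signs were opposite on the 2 arrays for 180 of 186 of these at 4 h and for 435 of 458 at 24 h. Without the channel genes these were 180 of 186 and 432 of 455. The sign of array 2 was therefore turned. These counts would be the same with all signs reversed, so they do not show which direction is LPS over saline. Each value given as higher would then read as lower. A gene was called where its mean over spots was at least 2-fold, or 1 log2 unit, from 0 on both arrays on the same side. The table holds ratios and no intensities, so neither the level of a gene nor the identity of the isolate could be read from it. Precision is limited by there being 4 arrays.

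At 4 h, 0 of the 90 channel genes were called, where 3.25% of all genes were (2.25% higher and 0.997% lower). None was past 2-fold in every spot at 4 h either, where 1.57% of all genes were (1.25% higher and 0.323% lower). Both arrays lay above 0 for 12 channel genes and below 0 for 25 at 4 h, where 24.3% and 25.6% of all genes did. At 24 h the counts were 22 above and 32 below, where 26.1% of all genes lay above and 26.1% below. At 24 h, 10 channel genes (11.1%) were lower and 1 (1.11%) was higher, where 3.52% of all genes were lower and 3.48% higher. The lower genes were the neuronal sodium channel Scn2a, the potassium channels Kcnk16, Kcnd1, Kcna2, Kcnj9, Kcnk4 and Kcnk3, the calcium channels Cacna1i and Cacna1a, and the ryanodine receptor Ryr2. The higher gene was the T-type calcium channel Cacna1g. Some genes were 2-fold on both arrays in opposite directions, a measure of differences between arrays and dyes. They numbered 2 of 90 at 4 h (2.22%, against 1.42% of all genes) and 1 of 90 at 24 h (1.11%, against 3.69%). The median over the 90 genes was -0.06 at 4 h and -0.17 at 24 h, against -0.02 over all genes at both times.

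**Figure D1:**
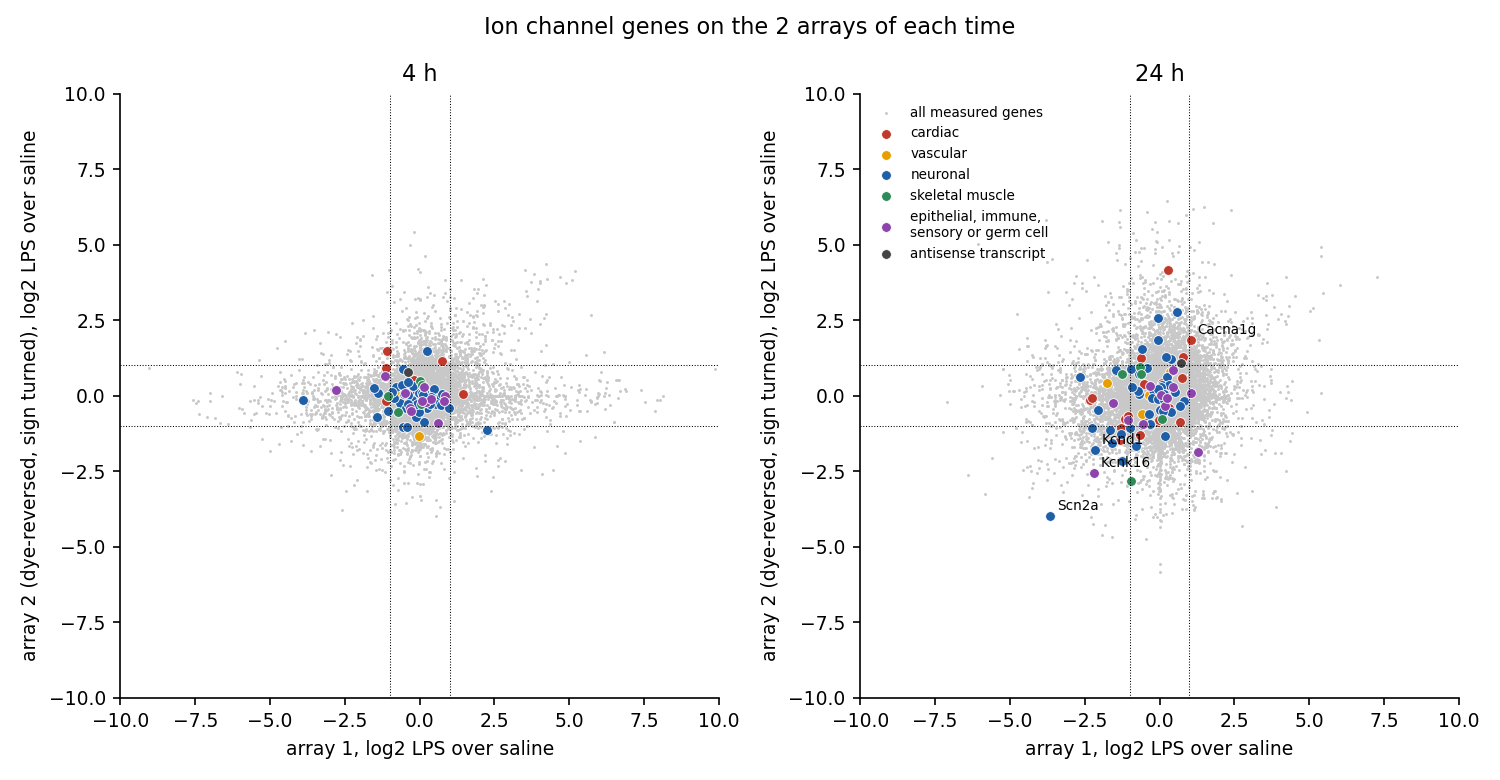
Log2 ratio of LPS over saline on array 1 (horizontal) and on array 2 with its sign turned (vertical) at 4 h and 24 h, for all 11138 genes in grey and the 90 channel genes coloured by chief site of expression, with dotted lines at 2-fold. No channel gene lies beyond the lines in the lower left or upper right corner at 4 h, and at 24 h 10 lie in the lower left corner, with Scn2a, Kcnk16 and Kcnd1 farthest out, and Cacna1g in the upper right.

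Only 5 of the called genes lay past 2-fold in every spot of both arrays at 24 h, all of them lower: Scn2a, Kcnk16, Kcnd1, Kcna2 and Kcnj9. Each of these 5 was read by 1 oligonucleotide, printed as 2 spots. For them the criterion compared duplicate spots and could not show whether a second oligonucleotide gave the same ratio. They made up 5.56% of the channel genes, and 1.78% of all genes met this criterion on the lower side (3.65% on either side). On the higher side 0 channel genes met it, against 1.87% of all genes. Promoter windows of these 5 genes are shown because their ratios moved the same way. RefSeq windows of 250 bases before to 50 after the start, build GRCm38.p6, were held for 70 of the 90 genes and for Kcna2, Kcnj9, Kcnk16 and Scn2a of these 5. Capitals mark 2 motifs, searched on either strand and not overlapping in these windows. The first is GGGCGG, the GC box. The second is the core of a promoter element bound by the general transcription machinery, TATAAA, the TATA box. The windows were chr3:107101317-107101616 (plus strand) for Kcna2, chr1:172329273-172329572 (minus strand) for Kcnj9, chr14:20269220-20269519 (minus strand) for Kcnk16, and chr2:65620519-65620818 and chr2:65668436-65668735 (plus strand) for the 2 starts of Scn2a.
Kcna2: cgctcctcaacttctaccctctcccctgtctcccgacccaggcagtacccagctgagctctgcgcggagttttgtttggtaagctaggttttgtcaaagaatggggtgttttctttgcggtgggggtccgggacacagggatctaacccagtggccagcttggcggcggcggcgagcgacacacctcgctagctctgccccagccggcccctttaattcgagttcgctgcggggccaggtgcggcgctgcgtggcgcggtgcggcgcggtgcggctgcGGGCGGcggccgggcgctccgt
Kcnj9: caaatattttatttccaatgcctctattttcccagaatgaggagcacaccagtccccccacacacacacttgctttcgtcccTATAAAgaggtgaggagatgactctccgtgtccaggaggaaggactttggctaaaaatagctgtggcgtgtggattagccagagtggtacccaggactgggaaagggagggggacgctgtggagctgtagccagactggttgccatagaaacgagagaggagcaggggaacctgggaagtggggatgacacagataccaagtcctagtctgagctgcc
Kcnk16: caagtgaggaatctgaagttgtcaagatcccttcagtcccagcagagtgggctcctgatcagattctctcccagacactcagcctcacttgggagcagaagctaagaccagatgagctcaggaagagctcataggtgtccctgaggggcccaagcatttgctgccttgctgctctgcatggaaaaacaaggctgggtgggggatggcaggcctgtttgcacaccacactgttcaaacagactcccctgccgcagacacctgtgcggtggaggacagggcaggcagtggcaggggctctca
Scn2a, upstream start: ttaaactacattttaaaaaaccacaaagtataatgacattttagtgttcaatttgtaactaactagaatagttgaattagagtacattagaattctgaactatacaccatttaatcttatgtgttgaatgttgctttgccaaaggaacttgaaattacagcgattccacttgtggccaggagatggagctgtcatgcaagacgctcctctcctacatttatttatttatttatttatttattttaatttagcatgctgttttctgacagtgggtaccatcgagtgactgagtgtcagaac
Scn2a, downstream start: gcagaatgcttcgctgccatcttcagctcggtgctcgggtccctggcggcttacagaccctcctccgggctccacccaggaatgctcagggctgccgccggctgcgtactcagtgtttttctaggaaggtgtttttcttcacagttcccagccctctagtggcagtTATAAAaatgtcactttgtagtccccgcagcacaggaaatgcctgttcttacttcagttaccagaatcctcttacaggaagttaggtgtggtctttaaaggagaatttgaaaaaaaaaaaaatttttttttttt
The GC box was found in the window of Kcna2, and the TATA letters in those of Kcnj9 and of the downstream start of Scn2a. No window held a kappaB site, searched on either strand as GGG, then any 2 bases, then TTTCC. Of the 92 windows of channel genes, 46 held the GC box, 5 (5.43%) the TATA letters and 0 the kappaB letters. Over all 32851 windows of the table these shares were 35.7%, 13.6% and 1.63%. The windows differed in composition, from 33.0% G and C at the upstream start of Scn2a to 66.7% at Kcna2, around a median of 59.5% for the channel genes. The motif matches are a description of letters and say nothing of binding.

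Sodium channels were represented by 7 genes, all of them pore-forming subunits. Scn2a, the sodium channel of central axons, was the lowest channel gene at 24 h. Its ratios were -0.44 and -1.05 on the arrays of 4 h and -3.65 and -3.99 on those of 24 h, giving -3.82 ± 0.24. The 24 h values of single spots ran from -3.35 to -4.27, so the 4 spots lay apart from 0 by more than they differed from each other. The fold was 14.1. No other sodium channel gene was called. The closest was Scn11a, a channel of pain-sensing neurons, at -0.77 and -1.67 at 24 h. Scn1a, Scn3a and Scn10a had 24 h means of -0.63, -0.04 and -0.01. Scn9a and Scn7a had means of 0.88 and 0.75, both set mainly by array 2, at 1.83 and 1.27 against -0.06 and 0.22 on array 1.

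Among 21 pore-forming genes of voltage-gated potassium channels, 2 were lower at 24 h (9.52%, where 3.52% of all genes were). Differences between channel families were not tested. Kcnd1, an A-type channel whose fast inactivating current delays firing, had ratios of -0.17 and -0.21 at 4 h. At 24 h they were -2.14 and -1.79, giving -1.97 ± 0.25. Its arrays were close to each other at both times, and its spots ran from -1.70 to -2.19 at 24 h. Kcna2, a delayed rectifier of axons, was at -1.02 and 0.00 at 4 h and at -1.60 and -1.58 at 24 h (mean -1.59 ± 0.01). Both of its spots on array 2 of 4 h had a ratio of exactly 1, and whether such a ratio was measured or filled in is not stated. Kcna7, known from skeletal muscle and heart, was at -0.94 and -2.82 at 24 h and missed the threshold on array 1, where its spots lay at -1.91 and 0.02.

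The cardiac repolarising channels of this family were not called at either time. Kcnq1, the pore of the slow delayed rectifier, stood at -0.23 and -0.10 at 4 h and at -2.27 and -0.09 at 24 h. Its spots on each array were within 0.1 log2 units, so the arrays and not the spots differed. Kcnh2, the pore of the rapid delayed rectifier, was at -0.06 on both arrays of 4 h and at 0.11 and 0.26 at 24 h. On every array its duplicate spots lay on opposite sides of 0. Kcnd2, a pore of the transient outward current of mouse ventricle, was at 0.25 and -0.27 at 4 h and at -1.46 and 0.80 at 24 h, which have opposite signs. Kcna5, a delayed rectifier of vascular smooth muscle and mouse heart, was the 1 channel gene above 0 in every spot of all 4 arrays. Its ratios were 0.76 and 1.13 at 4 h and 0.78 and 1.29 at 24 h, with array 1 below 2-fold at both times. A share of 3.19% of all genes lay above 0 in every spot in this way, against 1.11% of channel genes. Below 0 in every spot of all arrays lay 5 channel genes, or 5.56%, which were Kcnd1, Kcne2, Kcnj9, Kcnq1 and Scn2a, against 2.62% of all genes. Kcne2 encodes an accessory subunit of several potassium channels.

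Kcnc1 and Kcng4 were among the genes with the lowest and highest means of 4 h. Kcnc1, a channel of fast-spiking neurons, was at -1.07 and -0.52 at 4 h and at -1.45 and 0.86 at 24 h. Kcng4, a subunit that forms no channel alone, was at 0.25 and 1.48 at 4 h and at -0.93 and 0.28 at 24 h. Its array 2 value at 4 h rested on 1 spot at 3.31, while the duplicate spot was at -0.34. Among 12 accessory genes of voltage-gated potassium channels 0 were called at either time. Kcnab2, a cytoplasmic subunit with an oxidoreductase fold, was at -0.54 and -1.05 at 4 h and at -0.25 and -0.08 at 24 h.

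Inward rectifiers, which hold the membrane near the potassium equilibrium potential, were represented by 12 genes. At 24 h 1 was called, lower (8.33%, where 3.52% of all genes were lower). Kcnj9, a G-protein-gated subunit of neurons, was at -0.03 and -0.52 at 4 h and at -1.66 and -1.12 at 24 h (mean -1.39 ± 0.38), and its spots on an array of 24 h were within 0.1 log2 units. Kcnj2, the main inward rectifier of ventricular myocytes and also known from endothelium, was near 0 at both times. It was at -0.23 and 0.07 at 4 h and at -0.53 and 0.40 at 24 h. Kcnj8, the pore of the ATP-sensitive channel of pericytes and vascular smooth muscle, was at -0.66 and 0.02 at 4 h and at 0.35 and 0.77 at 24 h, below 2-fold on every array. Kcnj11, the pore of the ATP-sensitive channel of myocytes and pancreatic beta cells, was at -0.02 and 0.20 at 4 h. At 24 h it was at -2.31 on array 1 and at -0.15 on array 2. The glial Kcnj10 was at 0.72 and -0.31 at 4 h and at -0.05 and 2.57 at 24 h. Kcnj15, known from kidney, was at 0.85 and -0.02 at 4 h and at -0.31 and 0.33 at 24 h. For Kcnj11 and Kcnj10 the distance between the arrays of 24 h was larger than the mean.

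Two-pore channels, which carry background potassium current, held 3 lower genes of 8 at 24 h (37.5%, where 3.52% of all genes were lower). With 8 genes this share is imprecise, and it was not tested. Kcnk16, known from pancreatic islets, had ratios of -1.16 and 0.65 at 4 h and of -2.18 and -2.55 at 24 h (mean -2.37 ± 0.26). Its 24 h spots ran from -1.28 to -3.09. Kcnk4, a mechanically gated channel of neurons, was at -1.30 and -1.28 at 24 h, but the 2 oligonucleotides of the gene differed. The first averaged -2.18 ± 0.30 and the second -0.40 ± 0.27, with 1 spot of the second at 0.86. Kcnk3, an acid-sensitive channel of heart and pulmonary artery muscle, was at 0.29 and -0.39 at 4 h and at -1.28 and -1.06 at 24 h (mean -1.17 ± 0.15). One of its 4 spots of 24 h, at -0.71, lay inside 2-fold. Kcnk7, a subunit without known current of its own, had the second lowest mean of 4 h. It was at -2.78 on array 1, from spots of -3.38 and -2.19, and at 0.18 on array 2. At 24 h it was at 0.18 and -0.35.

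Calcium-activated potassium channels are the group best known from resistance vessels. With the accessory Kcnmb genes and Kcnu1 counted among them, 0 of 7 genes were called at either time. Kcnn4, the intermediate-conductance channel of endothelium and blood cells, was at 0.41 and -0.01 at 4 h and at -0.60 and -0.59 at 24 h, a mean of -0.59 ± 0.0025 that lay inside 2-fold. The small SD came from averaging spots that differed, at -0.33 and -0.86 on array 1 of 24 h and at -1.0 and -0.19 on array 2. Kcnma1, the pore of the large-conductance channel of smooth muscle, was at 0.01 and 0.33 at 4 h and at -1.76 and 0.42 at 24 h. Kcnmb1, its smooth muscle accessory subunit, was at -0.04 and -1.34 at 4 h and at -0.35 and 0.02 at 24 h. The lowest 4 h mean of all channel genes was that of Kcnn1, a small-conductance channel of neurons, at -2.01 ± 2.65. It came from 1 spot at -8.84 whose duplicate on the same array was at 1.07, and array 2 was at -0.13. The endothelial small-conductance channel Kcnn3 was not analysed here.

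Calcium channels and their accessory subunits were represented by 17 genes, of which 2 were lower and 1 was higher at 24 h. Cacna1g, a T-type channel of the sinoatrial node and of neurons, was at -0.33 and -0.27 at 4 h and at 1.06 and 1.83 at 24 h (mean 1.45 ± 0.55). Its array 2 value averaged spots of -0.71 and 4.38, which lay on opposite sides of 0. Cacna1a, the presynaptic P/Q-type channel, was at -0.57 and 0.88 at 4 h and at -2.25 and -1.08 at 24 h. Cacna1i, a T-type channel of neurons, was 2-fold in opposite directions at 4 h, at 2.26 and -1.13. At 24 h it was at -1.25 and -2.17, and on each array 1 spot was near 0 (0.02 and -0.06) while the other was at -2.53 or -4.27. The highest 24 h mean of all channel genes, 2.22 ± 2.75, was that of Cacnb2, the cardiac accessory subunit of L-type channels, and it was set by array 2 at 4.16 against 0.27 on array 1. Cacng4, an accessory subunit also of glutamate receptors, was at 0.54 and -0.26 at 4 h and at 0.59 and 2.77 at 24 h. Its spots on array 2 of 24 h lay at 0.38 and 5.15. Cacna2d1, an accessory subunit that carries channels to the membrane, was at 1.46 and 0.05 at 4 h and at 0.31 and -0.39 at 24 h. The pore of the cardiac L-type channel, Cacna1c, was not analysed here.

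Ryanodine receptors release calcium from the sarcoplasmic reticulum, and Ryr2 is the cardiac form. Ryr2 was at -0.05 and -0.04 at 4 h and at -1.32 and -1.47 at 24 h, a mean of -1.40 ± 0.11. The small SD came from averaging 2 oligonucleotides that differed at 24 h. The first was at -2.16 and -3.17 on the 2 arrays and the second at -0.49 and 0.22. Ryr1, the form of skeletal muscle, and Ryr3 were not called, with 24 h means of 0.05 and -1.02 and arrays on opposite sides of 0. The pacemaker channel Hcn3 was at -1.43 and -0.72 at 4 h and at 0.24 and 0.63 at 24 h. Its spots on array 2 of 24 h lay at -1.19 and 2.45. Hcn4, the main form of the sinoatrial node, was not analysed here.

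**Figure D2:**
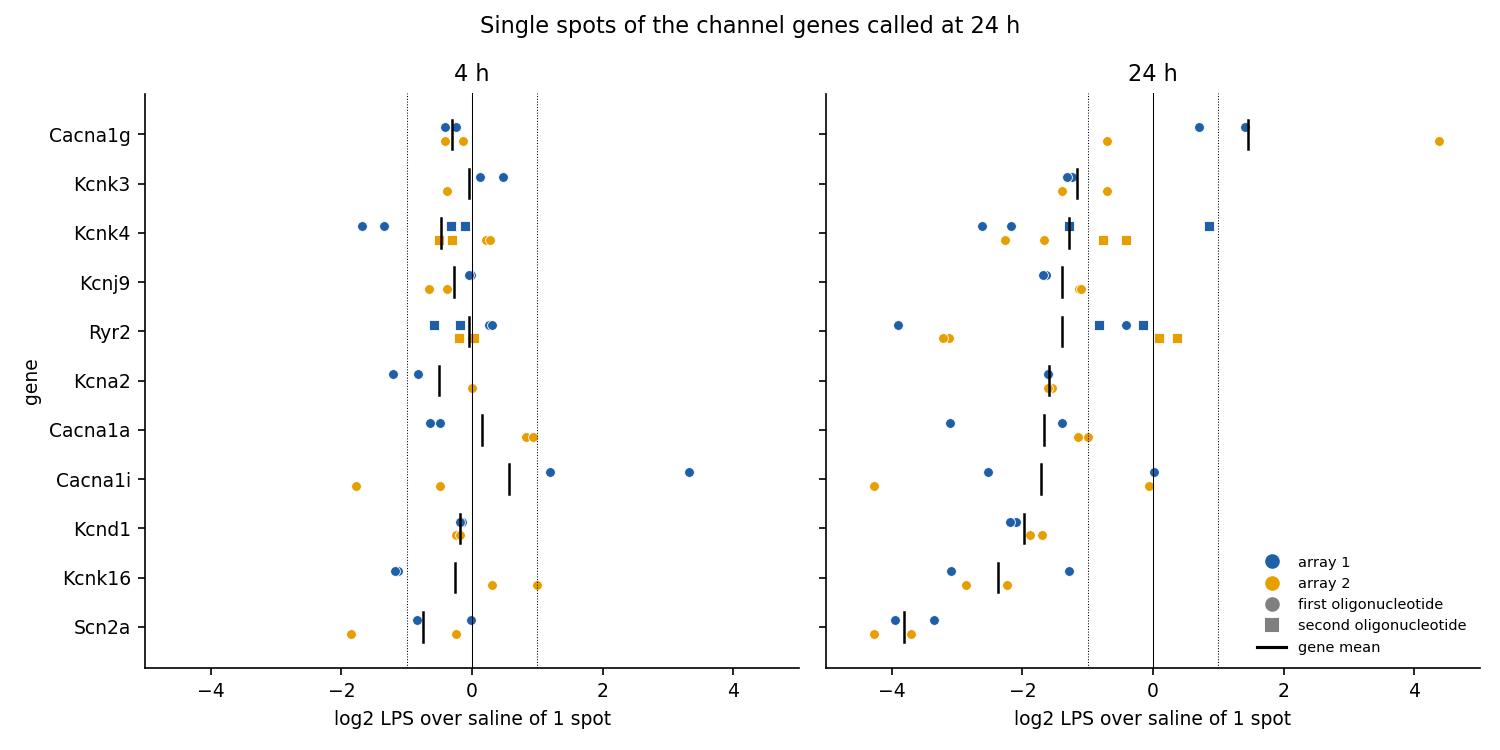
Log2 ratio of LPS over saline of each single spot (horizontal axis) for the 11 channel genes called at 24 h, at 4 h and 24 h, with array 1 in blue, array 2 in orange, the second oligonucleotide of a gene as squares, the gene mean as a black bar and dotted lines at 2-fold. All spots of Scn2a, Kcnk16, Kcnd1, Kcna2 and Kcnj9 lie below the lower 2-fold line at 24 h. Those of Ryr2, Kcnk4, Cacna1i and Kcnk3 spread to both sides of that line, and 1 spot of Cacna1a lies at it (-1.0). Spots of Cacna1g at 24 h lie on both sides of 0 and of the upper 2-fold line.

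Channels were then grouped by the cell type they are chiefly known from. This gave 22 cardiac, 5 vascular, 45 neuronal and 5 skeletal muscle genes, 12 of epithelial, immune, sensory or germ cells, and the antisense transcript. At 24 h, 7 of the 45 neuronal genes were lower and 0 higher. Of the 22 cardiac genes 2 were lower, Ryr2 and Kcnk3, and 1 was higher, Cacna1g. None of the 5 vascular genes (Kcnj8, Kcnma1, Kcnmb1, Kcnn4 and Kcne4) and none of the 5 skeletal muscle genes was called, and 1 of the 12 remaining genes was lower, Kcnk16. A wider vascular group of 8 genes, which added Kcnj2, Kcna5 and Kcnk3 from the cardiac group, had 1 lower gene, Kcnk3 (12.5%). For comparison, 3.52% of all genes were lower. The difference in these counts between the groups was not tested. Of the 5 genes past 2-fold in every spot, 4 were neuronal and 0 cardiac or vascular.

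The medians of the groups lay closer together than the counts. At 24 h they were -0.21 for cardiac, -0.21 for vascular and -0.17 for neuronal genes, with -0.28, -0.35 and -0.32 on array 1 and -0.12, 0.02 and -0.08 on array 2. All 3 groups were thus below 0 on array 1 and nearer to 0 on array 2. The cardiac means of 24 h ran from -1.40 to 2.22, the neuronal ones from -3.82 to 1.68 and the vascular ones from -0.67 to 0.56. At 4 h the medians were -0.05, 0.02 and -0.18, and the typical size of a mean, without its sign, was 0.20 over all channel genes against 0.30 over all genes. At 24 h that size was 0.48 for both.

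**Figure D3:**
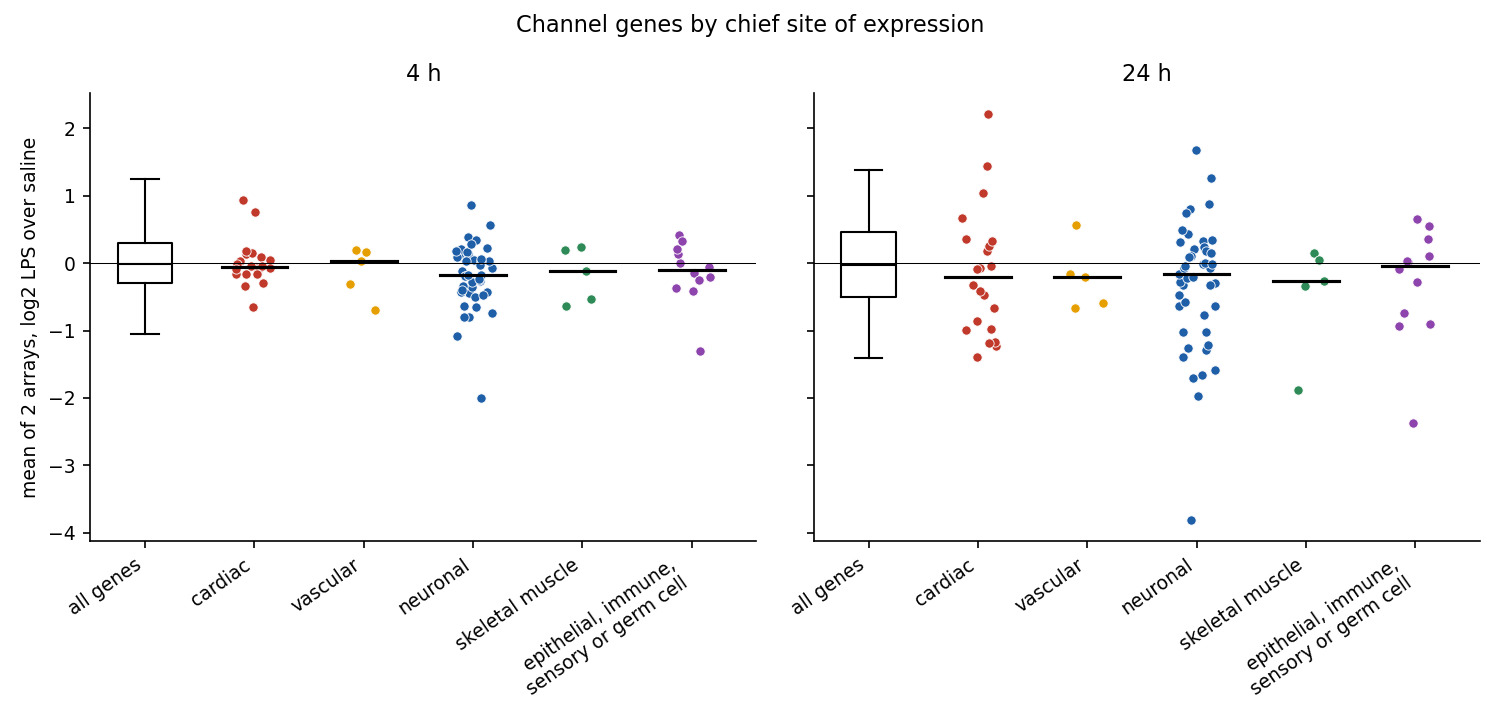
Mean log2 ratio of the 2 arrays (vertical axis) at 4 h and 24 h for each channel gene, grouped by chief site of expression, with the group median as a black bar, and for all genes as a box (quartiles and median) with whiskers to the 5th and 95th percentile. The medians of the groups of 5 or more genes lie between -0.27 and 0.02 at both times, and the 4 lowest points at 24 h are Scn2a, Kcnk16, Kcnd1 and Kcna7.

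Markers of the cell types were read beside these groups. Of 27 measured cardiomyocyte markers 0 were called at either time, and their median was -0.22 and -0.10 on the arrays of 4 h and -0.11 and 0.18 on those of 24 h. Of 18 neuron and Schwann cell markers 0 were called at 4 h and 1 at 24 h, the myelin gene Pmp22, at -1.30 and -2.86, and the median of the list was -0.47 and 0.36 on the arrays of 24 h. Of 13 smooth muscle and pericyte markers 1 was called at each time, Actg2, at 2.18 ± 0.58 at 4 h and -2.42 ± 1.47 at 24 h. Of 20 endothelial markers, 1 was higher (Cldn5) and 2 were lower (Kdr and Eng) at 4 h. At 24 h, 4 were higher (Kdr, Eng, Cd36 and Gpihbp1), and the list had a median of 0.65 and 0.53 on the arrays. Of 18 leukocyte markers 0 were called at 4 h, and 3 were higher (S100a8, S100a9 and Coro1a) and 1 lower (Ngp) at 24 h. For comparison, 3.25% of all genes were called at 4 h, and 3.48% were higher and 3.52% lower at 24 h. The endothelial share called lay above that of all genes at both times, and the leukocyte share did at 24 h. The cardiomyocyte and neuron shares lay below it at both times. These differences were not tested. The part of a changed cell mixture in the channel values was not tested.

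Spot quality was read from the duplicate spots and from ratios of exactly 1. The median gap between duplicate spots of a channel oligonucleotide was 0.34 and 0.25 log2 units on the arrays of 4 h and 0.63 and 0.41 on those of 24 h. Over all named oligonucleotides it was 0.41, 0.24, 0.49 and 0.47. On array 1 of 24 h, gaps over 1 log2 unit were found in 35 of the 100 channel oligonucleotides, against 29.7% of all, and on array 2 in 24, against 29.3%. At 4 h they were found in 19 and 7 of the 100, against 27.1% and 13.7%. Among the neuronal ones the share was 35.8% on array 1 of 24 h and 28.3% on array 2, and among the cardiac ones it was 6 of 24 on both. On array 1 of 24 h the median gap was 0.39 for cardiac, 0.37 for vascular and 0.67 for neuronal channels. On array 2 it was 0.38, 0.485 and 0.36. At 4 h a ratio of exactly 1 was held by 5 of the 200 channel spots on array 1 and by 17 on array 2, against 5.03% and 8.01% of all named spots. At 24 h it was held by 3 on array 1 and 9 on array 2, against 6.43% and 5.72%; the share among channel spots was lower on array 1 of both times, which was not tested. Across the 90 channel genes, the 2 arrays of a time correlated at -0.17 at 4 h and 0.42 at 24 h, against 0.12 across all genes at both times. These are correlations across genes that share 2 arrays and the turned sign, and the genes are not independent replicates.

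Of the 10 channel genes read by 2 oligonucleotides, 2 were called at 24 h, Ryr2 and Kcnk4, and in both only the first oligonucleotide was past 2-fold. Kcnh3, a channel of forebrain neurons, was at 2.65 and -0.06 by its first oligonucleotide and at -2.60 and -0.86 by its second at 24 h. Its gene mean of -0.22 therefore averaged values on opposite sides of 0.

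The times were compared by asking that the arrays of the times did not overlap and that the means were at least 1 log2 unit apart. This held for 19.8% of all genes. By this criterion 17 channel genes were lower at 24 h than at 4 h (18.9%, where 10.3% of all genes were) and 3 were higher (3.33%, where 9.43% were). In both directions together these were 22.2% of the channel genes, near the share of all genes. The 17 included 9 of the 10 genes called lower at 24 h, all but Kcnk4, and also Kcna7, Cacna1h, Cacng2, Kcna3, Kcnj4, Kcnj11, Kcnk10 and Scn11a. The largest difference was that of Scn2a, at -3.07, followed by Cacna1i at -2.28, Kcnk16 at -2.11 and Kcna7 at -2.08. The 3 higher genes were Cacna1g, Hcn3 and Cacng4, which differed by 1.75, 1.51 and 1.54. Each time is a ratio to the saline RNA on its own arrays.

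**Figure D4:**
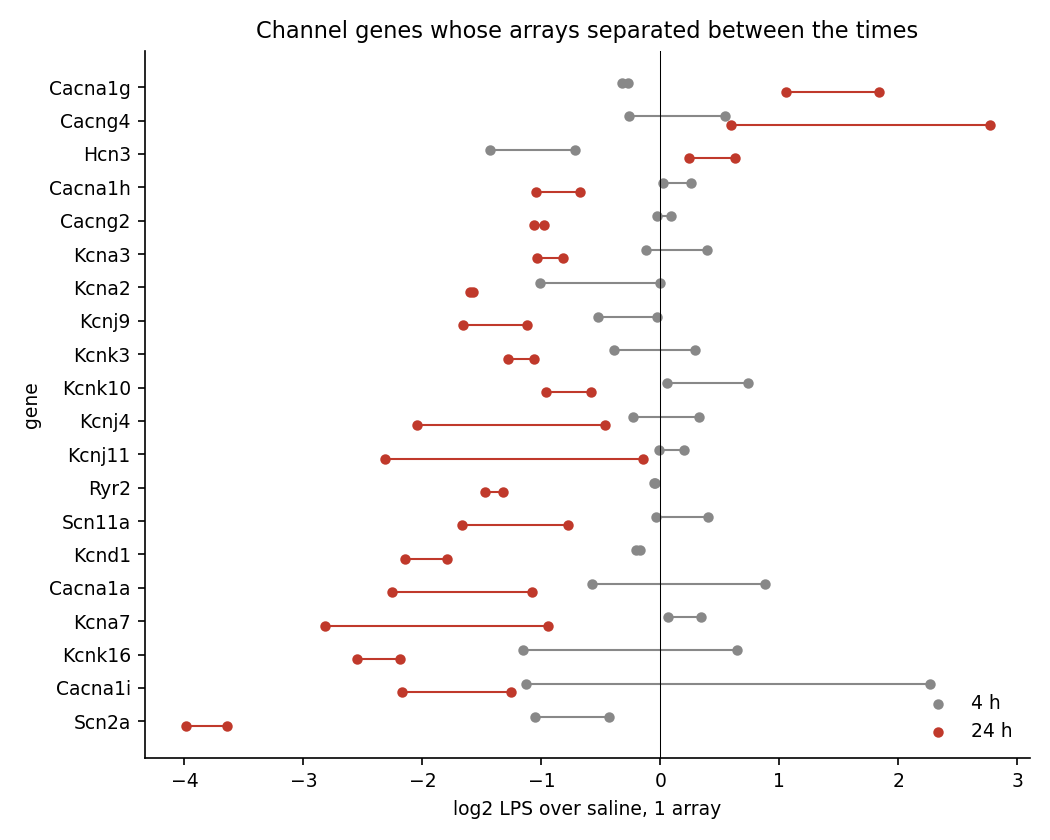
Log2 ratio of LPS over saline on each single array (horizontal axis) for the 20 channel genes whose arrays separated between the times, 4 h in grey and 24 h in red, with a line joining the 2 arrays of a time. The 24 h arrays of 17 genes lie to the left of both 4 h arrays, by the widest margin for Scn2a, and those of Cacna1g, Hcn3 and Cacng4 lie to the right.

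Other genes of ion transport and calcium handling were read from a list of pumps, exchangers, release channels, transient receptor potential channels and gap junction genes. Of its 47 genes 31 were measured. At 4 h, 1 was lower, the endoplasmic reticulum calcium pump Atp2a3 at -1.36 and -1.10, and 0 were higher, where 0.997% of all genes were lower. At 24 h, 2 were higher and 0 lower, or 6.45% called, where 3.48% of all genes were higher and 780 of 11138 were called in either direction, so the share called was near that of all genes. The 2 were Fkbp1a, whose protein binds ryanodine receptors, at 1.65 and 1.30, and Jph2, which holds the sarcoplasmic reticulum to the cell membrane, at 1.83 and 1.70. The median of the list was 0.17 at 24 h, against -0.17 for the channel genes. In a fit with limma that took the arrays as separate samples, 0 channel genes had an adjusted p under 0.05 at either time. Of all 11138 genes 0 did either, so this count is not particular to the channel genes. The lowest adjusted p of a channel gene was 0.391 at 24 h. At an unadjusted p under 0.05 there were 1 channel gene at 4 h (1.11%, against 4.26% of all genes) and 16 at 24 h (17.8%, against 10.1%).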

How the data were processed

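The authors deposited log2 ratios of the 2 dyes for 32448 spots on each of 4 arrays, per the file header as a value table. The sources used here do not give the background correction, dye normalization or filters before it, and per the labels RNA (stated as amplified for 4 h) was labelled with Cy3 and Cy5 and hybridised to Operon long oligonucleotides. Each array had a median of 3.0e-07, and 10.2% to 13.4% of its spots had a ratio of exactly 1 (within 1e-06 of 0 in log2). Which dye was the numerator is not stated. The members and gene lists were chosen with earlier results of these data known.

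Spots with 1 gene symbol in the platform annotation were used (24344 spots), with array 2 turned in sign. Adjacent spots, which held the same accession in 12172 of 12172 pairs, were averaged first and oligonucleotides of the same gene next, and arrays were centred on the gene median (pandas 2.3.3). All 90 channel genes matched RefSeq by gene identifier and all 90 passed, as no filter on low values was used. Genes named were those called, the 5 highest and 5 lowest means per time, and a list of well-known cardiac and vascular channels; others are given as comparisons and were chosen after their values were seen. The limma 3.58.1 fit ran on all 11138 genes with Benjamini-Hochberg adjustment, and calls and fit were tested on simulated data. Alternatives covered centring, scaling, spot filters, the threshold, the turned sign and each array alone.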

Additional observations from a re-analysis of the deposited data

Results flagged for a closer look

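Of the named channel genes, 4 had both arrays on one side of 0 at 4 h and both on the other side at 24 h. Over all 90 channel genes 6 did (6.67%), where 12.3% of all genes did. In the limma fit with arrays as separate samples, the difference between the times had an unadjusted p of 0.028 for Cacna1g, 0.0466 for Hcn3, 0.0492 for Kcna7 and 0.6435 for Kcnh2. After adjustment over all genes limma gave 0.80 for the first 3 and 0.92 for Kcnh2. Cacna1g differed by 1.75 (24 h minus 4 h) and Hcn3 by 1.51, both from below 0 to above it, and Kcna7 by -2.08, from above 0 to below it. Kcnh2 differed by 0.25, from -0.06 ± 0.0015 to 0.19 ± 0.11, and lay inside 2-fold on every array. Its duplicate spots lay on opposite sides of 0 on every array. At 4 h they were at 0.38 and -0.49 on array 1 and at 0.04 and -0.16 on array 2. At 24 h they were at -0.09 and 0.31 and at 0.63 and -0.11. The small SD of 4 h therefore came from averaging spots that differed.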

How the results depend on the processing

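LPS and saline RNA were paired on each array, and the 2 arrays of a time were paired by dye reversal. No pairing by animal was possible because the labels name no separate animals, and each time had 1 pair of dye-reversed arrays. With 1 array in place of both, 7 to 14 channel genes were past 2-fold at 4 h (12.7% to 20.8% of all genes) and 25 to 27 at 24 h (29.1% to 30.6% of all genes), so the channel share of 24 h was then near the background. Leaving out 1 array, the times separated 21 to 33 channel genes (26.6% to 35.9% of all genes). The count of 0 at 4 h became 1 with scale or quantile normalization (Hcn3, lower; 4.88% and 4.60% of all genes), 2 at a 1.5-fold threshold (8.45%) and 2 with signs as deposited (1.42%). The count of 11 at 24 h became 7 with scale or quantile normalization and 5 where every spot had to be 2-fold. It became 6 where duplicate spots had to lie within 1 log2 unit, a filter that kept fewer than the 90 channel genes. It became 23 at 1.5-fold, 2 at 4-fold and 1 with signs as deposited. It was 10 without centring, 12 without ratios of exactly 1 and 10 with the median over spots. In limma 0 channel genes and 0 of all genes passed after adjustment (16 channel genes at an unadjusted p under 0.05). Calling a gene by any of its oligonucleotides, chosen after seeing the data, gave 0 at 4 h and 11 at 24 h. The 7, the 6, the 5 and the 2 genes were all among the 11, and the 1 with signs as deposited (Kcnk5) was not. The count of 20 separated genes (22.2%, against 19.8% of all genes) became 13 with scale or quantile normalization (14.4%, against 18.5% and 18.9% of all genes). It became 8 of 38 with the spot filter (21.1%, against 344 higher and 480 lower of 4570 genes) and 8 with signs as deposited (8.89%, against 11.7%). It became 32 at 1.5-fold (35.6% of channel genes) and 4 at 4-fold (4.44%, against 5.67%). In limma 0 channel genes and 0 of all genes passed after adjustment. At an unadjusted p under 0.05 limma gave 7 channel genes (7.78%, against 5.73% of all genes). The share of all genes called at 24 h moved with these settings too, from 780 of 11138 genes to 3.97% with scale and 5.05% with quantile normalization. It was 3.65% by every spot, 16.2% at 1.5-fold, 0.970% at 4-fold and 3.69% with signs as deposited. With the spot filter it was 8.21% of the genes that the filter kept, so the 6 channel genes are not to be read over all 90. Group medians of 4 h without ratios of exactly 1 were -0.034 for cardiac, -0.127 for vascular and -0.132 for neuronal channels, and a wider vascular group gave -0.011. On single arrays of 4 h they were -0.054 to -0.052, -0.007 to 0.011 and -0.127 to -0.111. With signs as deposited, 24 h means changed sign for Cacna1g (-0.39), Cacna1i (0.46), Kcnk16 (0.18), Ryr2 (0.08) and Scn2a (0.17). Of 95 values of the called genes under all settings, 5 changed sign, these 5. A call required both arrays on the same side of 0, so with 1 array alone a called gene could not change sign. With signs as deposited, the sign of a mean depends on which array lay farther from 0. The count of 5 is therefore no measure of how stable the calls are. The table holds no signal over background, so weak spots could not be left out.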
